A study of Mus musculus with 9 samples.

Results

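The 7 genes described here are *Plk1*, *Cdc20*, *Cdca8*, *Cks2* and *Hmmr*, which act in mitosis, and *Anapc4* and *Anapc10*, which encode subunits of the anaphase-promoting complex or cyclosome (APC/C). They were taken by name, to set mitotic genes whose RNA changed between the groups beside subunits of the complex that were taken as constant, and they are 7 of the 8329 genes in the table. In the data *Anapc10* differed little in FPKM across the libraries, whereas *Anapc4* was higher in the grafts, so the subunits are described 1 by 1. RNA sequencing covered 3 groups of sorted stromal cells from wild-type C57BL/6J mice, with 3 libraries each. Mesenchymal stem cells of the bone marrow (BM-MSCs) and periosteal skeletal stem cells (P-SSCs) came from steady-state bones at day 0. Graft P-SSCs came from the periosteum of femurs at day 3 after transplantation under the skin of recipient mice that had received no conditioning. By the study's methods, such stromal cells were sorted as CD45-Ter119-CD31-CD51+CD200+, mice were 6 to 12 weeks old unless stated otherwise, RNA of a pair of mice was combined in some libraries, and each replicate is stated to hold RNA of distinct mice, without saying whether libraries of different groups shared a mouse. Sham-operated bones and other days were not analysed here, so the operation and the time since it cannot be told apart in the graft group.

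Cells enter mitosis when cyclin-dependent kinase and polo-like kinase drive the duplicated chromosomes to condense and attach to the spindle. The APC/C is a ubiquitin ligase of many subunits that then marks securin and mitotic cyclins for destruction, which lets sister chromatids part and the cell leave mitosis. Its subunits are present through the cell cycle, and its activity is set by coactivators (CDC20 in mitosis, CDH1, encoded by *Fzr1*, afterwards), by phosphorylation and by the spindle checkpoint. The RNA of most mitotic regulators, by contrast, is made late in the cell cycle and is scarce in resting cells. Many of their promoters hold CCAAT boxes, bound by NF-Y, and a cell cycle genes homology region (CHR), bound by the DREAM and MuvB-FOXM1 complexes. Skeletal stem cells in unperturbed adult bone are known to divide rarely.

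The promoters of the members are shown because the presence of these motifs is a feature that did not depend on the expression values. Each line gives 180 bases before and 30 bases after the first annotated start in RefSeq (GRCm38.p6), 5′ to 3′ in the direction of the gene, with capitals for the CCAAT box and for the CHR core, spelled TTTGAA, each read on both strands.
Plk1 (chr7:122159255-122159464, plus strand): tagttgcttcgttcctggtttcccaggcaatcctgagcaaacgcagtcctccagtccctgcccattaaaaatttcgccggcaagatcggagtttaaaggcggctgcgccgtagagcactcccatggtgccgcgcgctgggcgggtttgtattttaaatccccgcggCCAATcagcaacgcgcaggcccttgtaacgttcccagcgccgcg
Cdc20 (chr4:118437314-118437523, minus strand): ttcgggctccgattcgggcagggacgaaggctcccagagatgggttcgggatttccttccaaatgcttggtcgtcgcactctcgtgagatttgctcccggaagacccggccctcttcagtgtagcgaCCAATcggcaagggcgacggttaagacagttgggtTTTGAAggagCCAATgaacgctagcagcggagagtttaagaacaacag
Cdca8 (chr4:124936888-124937097, minus strand): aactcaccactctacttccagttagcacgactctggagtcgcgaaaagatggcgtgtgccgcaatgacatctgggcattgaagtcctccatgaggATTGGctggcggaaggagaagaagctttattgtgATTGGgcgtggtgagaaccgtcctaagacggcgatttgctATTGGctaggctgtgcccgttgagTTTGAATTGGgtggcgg
Cks2 (chr13:51645052-51645261, plus strand): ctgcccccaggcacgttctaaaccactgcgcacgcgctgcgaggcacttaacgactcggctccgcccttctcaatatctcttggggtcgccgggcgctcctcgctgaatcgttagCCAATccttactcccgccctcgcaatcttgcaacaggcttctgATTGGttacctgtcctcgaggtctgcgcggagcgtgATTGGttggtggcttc
Hmmr (chr11:40733408-40733617, minus strand): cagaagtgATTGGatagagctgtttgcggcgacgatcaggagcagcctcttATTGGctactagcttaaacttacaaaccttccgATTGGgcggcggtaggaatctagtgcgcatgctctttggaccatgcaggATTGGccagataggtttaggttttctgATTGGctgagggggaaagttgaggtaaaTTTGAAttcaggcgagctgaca
Anapc4 (chr5:52833955-52834164, plus strand): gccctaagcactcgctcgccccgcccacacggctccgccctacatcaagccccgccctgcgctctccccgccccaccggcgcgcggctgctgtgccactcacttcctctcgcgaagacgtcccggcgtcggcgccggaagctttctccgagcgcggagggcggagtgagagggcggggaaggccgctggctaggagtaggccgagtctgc
Anapc10 (chr8:79711583-79711792, plus strand): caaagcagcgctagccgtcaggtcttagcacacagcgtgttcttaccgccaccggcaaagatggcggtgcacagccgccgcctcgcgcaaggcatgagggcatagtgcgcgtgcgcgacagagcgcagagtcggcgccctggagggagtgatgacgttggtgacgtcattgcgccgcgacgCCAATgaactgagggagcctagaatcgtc

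In the full windows of 250 bases before to 50 bases after the start, the CHR core occurred once in *Plk1*, *Cdc20*, *Cdca8* and *Hmmr* and was not found in *Cks2*, *Anapc4* or *Anapc10*. In *Plk1* the match began at base 31 after the start, just past the stretch printed. In *Cdc20* it began 18 bases before the start, and in *Hmmr* at base 9 and in *Cdca8* at base 14 after it, where it shared 1 base with a reversed CCAAT box. CCAAT boxes occurred 5 times in *Hmmr*, 4 times in *Cdca8* and in *Cks2*, 2 times in *Cdc20*, once in *Plk1* and *Anapc10*, and not in *Anapc4*. Of all 32851 windows of this length, 37.4% held a CCAAT box, 11.7% held 2 or more, 17.9% held a CHR core and 7.0% held both motifs. Among the first windows of the 1440 genes tested below that had one, these shares were 38.5%, 15.4%, 11.4% and 4.8%. A match of letters is a description of the window and no measure of binding. A second RefSeq start of *Anapc10* gave the same counts. Of the 24 other mitosis, APC/C and SCF genes that were tested below and had a window, 12 held a CCAAT box, 9 a CHR core and 6 both.

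**Figure D1:**
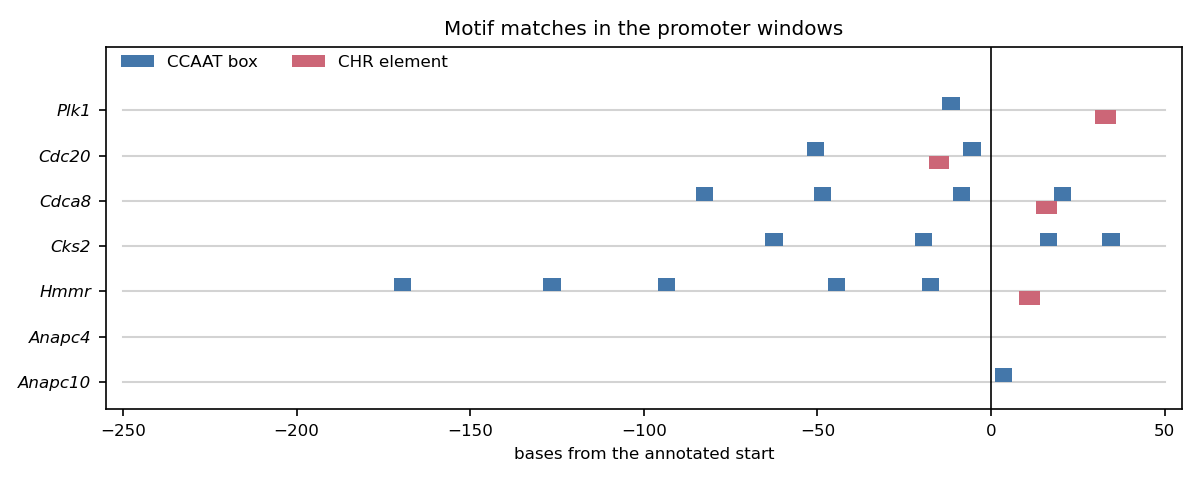
Positions of CCAAT boxes (blue) and of the CHR core (red) in the window of 250 bases before to 50 bases after the annotated start (vertical line) of the 7 genes, with the distance from the start in bases on the x axis and 1 line per gene. The CHR core lies within 36 bases of the start in 4 of the 5 mitotic genes, and *Anapc4* has neither motif.

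Levels are in FPKM, the fragments on a gene scaled to its length and to the library total. Multiplied by the length that the values imply and by the library total, all values of the 7 genes were whole numbers of fragments (within 0.01), of libraries with totals of 16890241 to 21315438 fragments. The length was the mean over a gene's annotated transcripts, from 692 bases in *Cks2* to 2658 bases in *Anapc10*, so that the order of FPKM between genes depends on that choice: for *Anapc4* the mean over 12 transcripts was 1085 bases and the longest was 3854. The groups were compared by limma on the log2(FPKM + 1) scale, in 1 fit of all 9 libraries and the 1948 genes with at least 1 FPKM in at least 3 libraries, with Benjamini-Hochberg adjustment over these genes and a call at an adjusted p under 0.05. All 7 members passed this filter, though no P-SSC library reached 1 FPKM for *Plk1* or *Hmmr*, and 1 of 3 did for *Cdc20* and *Cdca8*. Genes on the opposite strand overlap *Plk1*, *Cdc20* (*Elovl1*), *Cdca8* and *Anapc10*, and a small nucleolar RNA lies within *Cks2*. Whether the counting used strand was not given in the sources used here, so reads of such pairs cannot be told apart. The 3 comparisons share groups and are not independent of each other. The fit also takes 1 spread per gene over the 3 groups, so each SE draws on the group left out of a comparison. The median SD of log2 values over the genes tested was 0.363 in BM-MSCs, 0.463 in P-SSCs and 0.134 in grafts. For *Plk1* the SD was 0.862, 0.0354 and 0.0348, and for *Hmmr* 1.24, 0 and 0.0771, in the same order. Over all genes tested, the median log2 fold change was -0.06 for P-SSCs against BM-MSCs, 0.26 for graft P-SSCs against P-SSCs and 0.28 for graft P-SSCs against BM-MSCs.

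Libraries of a group were not all alike. P-SSC replicate 3 correlated best with the grafts over the genes tested (mean r = 0.834, against 0.781 and 0.787 for the other P-SSC libraries). Yet it held the fewest fragments of the 5 mitotic genes, 23, against 66 in replicate 1 and 191 in replicate 2. BM-MSC replicate 3 held 3813 such fragments, against 1409 and 1080 in replicates 1 and 2. It also held most RNA of *Hba-a2*, an alpha-globin of red cells, with 2201 FPKM against 748.4 and 617.9. Of the blood cell lists, 1 of 14 erythroid, 6 of 16 myeloid and pan-blood and 3 of 11 lymphoid markers were in the table, and none of 8 endothelial ones. The summed myeloid and pan-blood markers were at 471.9 to 619.5 FPKM in BM-MSCs, 14.5 to 72.4 in P-SSCs and 33.5 to 92.9 in grafts. *Hba-a2* was at 2.13 to 20.2 FPKM in P-SSCs and at 0.531 to 3.67 in grafts, and the lymphoid sum was 3.197 to 7.18 FPKM in BM-MSCs, 0 in P-SSCs and at most 0.219 in grafts. Of 14 stromal markers, *Postn* alone was in the table, at 90.6 to 124.7 FPKM in BM-MSCs, 390.5 to 476.4 in P-SSCs and 782.2 to 879.1 in grafts. CD51 and CD200, on which the cells were sorted, were therefore not checked here. The summed RNA of each blood cell list was thus highest in the BM-MSC group. The part of blood cell RNA in the mitotic levels of BM-MSCs was not tested. Single markers did not all follow the sums: *Mpo*, of the myeloid list, was at 292.2 FPKM in BM-MSC replicate 1 and at 0 in replicates 2 and 3. Some myeloid RNA lay higher in the grafts than in steady-state P-SSCs without overlap, given here with no test. *Csf1r*, a receptor of macrophages that passed the filter on low values only through the grafts, was at 5.57 to 6.31 against 0.248 to 0.835 FPKM, and *Spi1*, a myeloid transcription factor, at 0.940 to 1.76 against 0 to 0.125 FPKM. In BM-MSCs *Csf1r* was at 0 to 2.68 FPKM, below the grafts, and *Spi1* at 2.43 to 9.95, above them. *Ptprc*, which encodes CD45, was at most 0.311 FPKM in the grafts and 0 in P-SSCs. The part of such cells in the mitotic levels of the grafts was not tested either.

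*Plk1*, on chromosome 7 from 122159439 to 122169873, encodes polo-like kinase 1, which matures centrosomes, attaches chromosomes to the spindle and helps to activate the APC/C. Its levels were 14.7, 20.2 and 48.7 FPKM in BM-MSC replicates 1, 2 and 3. In P-SSCs it was represented by a single fragment in replicate 1 (0.0434 FPKM) and by none in replicates 2 and 3, where 0 fragments allow up to 0.145 and 0.135 FPKM. The graft libraries had 146.2, 153.4 and 150.9 FPKM. All graft libraries were thus above all BM-MSC libraries, and these above all P-SSC libraries. Graft P-SSCs held 9997 fragments against 1, a ratio of 9920 per library total with a 95% interval of 1780 to 391900 that covers counting error only. BM-MSCs held 1770 fragments, a ratio of 1854 (332.3 to 73270), or 1160 without BM-MSC replicate 3. On the log2(FPKM + 1) scale, which understates such changes, *Plk1* was 7.22 higher in graft P-SSCs than at steady state (SE 0.37, adjusted p = 2.27e-06). This was the largest difference of the 1948 genes in that comparison. Since these are bulk samples, more cells with the RNA and more RNA per cell cannot be told apart, here and for every gene below.

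*Cdc20*, on chromosome 4 from 118432901 to 118437352, encodes the coactivator that brings substrates to the APC/C at the onset of anaphase. BM-MSCs had 31.7, 14.9 and 62.4 FPKM in replicates 1, 2 and 3. P-SSCs had 0.541, 3.66 and 0.306 FPKM, from 11, 67 and 6 fragments. In the grafts the levels were 263.7, 255.7 and 271.3 FPKM, the highest of the 7 genes. The groups did not overlap, although P-SSC libraries differed 11.95-fold among themselves and graft libraries only 1.06-fold. Between graft and steady-state P-SSCs the log2 difference was 6.97 (SE 0.55, adjusted p = 2.31e-05), which ranked second of all genes after *Plk1*. The ratio of *Cdc20* to *Plk1* within a library was 1.80, 1.67 and 1.80 in the grafts and 2.16, 0.739 and 1.28 in BM-MSCs.

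*Cdca8*, on chromosome 4 from 124918465 to 124939311, encodes borealin, the subunit of the chromosomal passenger complex that helps to place Aurora B kinase at centromeres. Its levels were 14.3, 8.53 and 34.9 FPKM in BM-MSCs. Among P-SSCs, replicate 2 had 3.03 FPKM from 75 fragments, while replicates 1 and 3 had none. The grafts had 69.3, 75.4 and 72.9 FPKM. The same P-SSC library, replicate 2, was thus highest for *Cdca8* and *Cdc20*. The log2 difference between graft and steady-state P-SSCs was 5.53 (SE 0.60, adjusted p = 0.000146). The other genes of the chromosomal passenger list were not in the table.

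*Cks2*, on chromosome 13 from 51645232 to 51650660, encodes a small protein that binds cyclin-dependent kinases and aids the phosphorylation of their substrates. BM-MSCs had 10.6, 6.22 and 27.0 FPKM. In P-SSCs it was detected in every library, at 3.95, 3.99 and 1.29 FPKM from 54, 49 and 17 fragments. The grafts had 58.8, 57.9 and 57.1 FPKM. *Cks2* was therefore the mitotic member that was least reduced in steady-state P-SSCs, and its graft libraries were the closest together, within 1.03-fold. The graft to P-SSC difference was 3.94 on the log2 scale (SE 0.48, adjusted p = 0.000287). The ratio of *Cdca8* to *Cks2* lay between 1.18 and 1.37 in all 6 BM-MSC and graft libraries, although the levels of both differed severalfold among these libraries. It was 0, 0.759 and 0 in P-SSCs.

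*Hmmr*, on chromosome 11 from 40701395 to 40733422, encodes RHAMM, a hyaluronan-binding protein that inside the cell binds microtubules and supports spindle assembly. It had 3.61, 1.31 and 11.7 FPKM in BM-MSCs, and no fragment in any P-SSC library. The grafts had 27.0, 30.04 and 29.2 FPKM from 831, 1114 and 914 fragments. Against 3 fragments per library, the limit that a count of 0 allows, *Hmmr* was at least 296.3-fold higher in the grafts and at least 57.12-fold higher in BM-MSCs than in P-SSCs, or 25.34-fold without BM-MSC replicate 3. The fitted log2 difference between graft and steady-state P-SSCs was 4.89 (SE 0.53, adjusted p = 0.000139), which depends on the pseudocount.

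**Figure D2:**
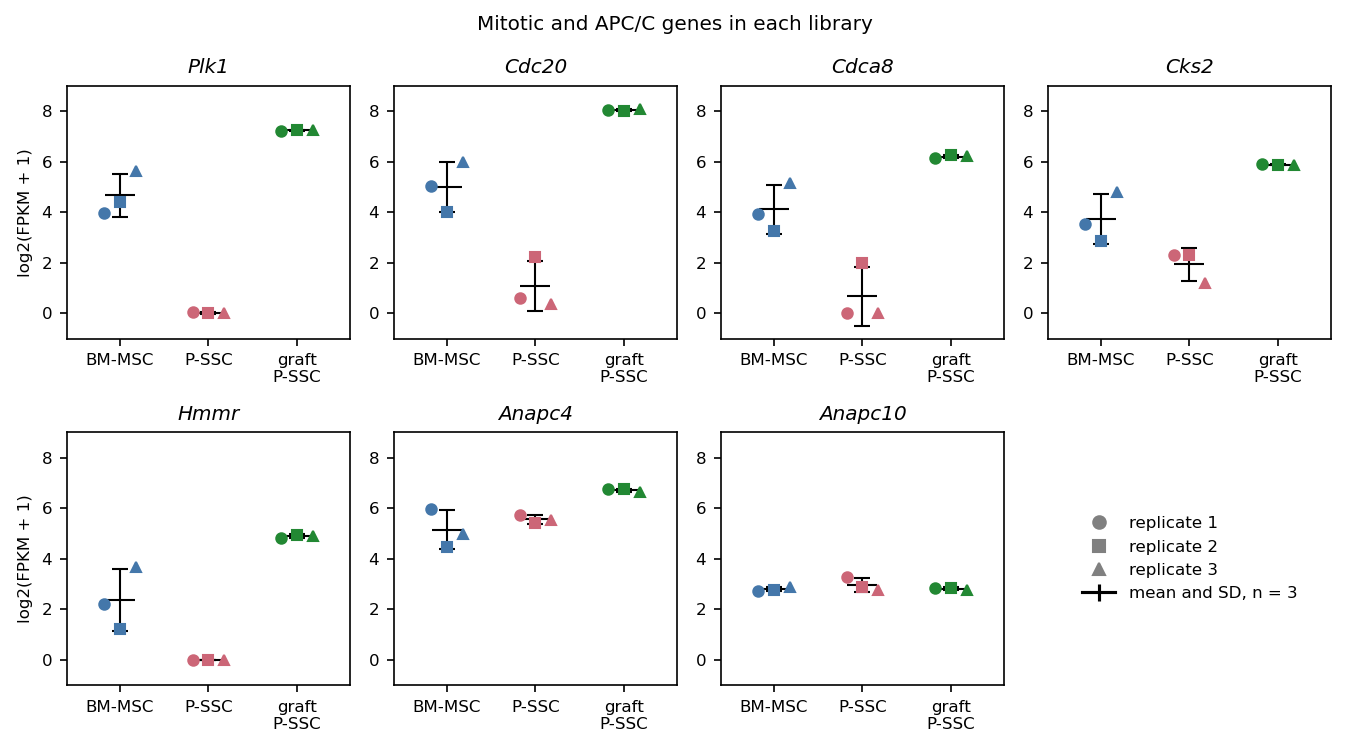
Expression of the 7 genes as log2(FPKM + 1) on the y axis in the 9 libraries by group on the x axis, with a symbol per replicate and bars for the mean and SD of 3 libraries. The 5 mitotic genes lie lowest in P-SSCs and highest in graft P-SSCs without overlap, *Anapc4* is highest in the grafts, and *Anapc10* stays between 5.68 and 8.63 FPKM.

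In the comparison of P-SSCs with BM-MSCs at steady state, all 5 mitotic members were lower in P-SSCs, all without overlap of the libraries. Over all genes tested, 14.4% were called lower and 9.80% higher in P-SSCs, and 19.2% lay below and 12.9% above without overlap. The members were chosen with results of these libraries known, so their counts and p-values are no independent evidence of a direction. *Plk1* fell by 4.65 on the log2 scale (SE 0.37, adjusted p = 1.76e-05) and *Cdc20* fell by 3.93 (SE 0.55, adjusted p = 0.000569). *Hmmr* fell by 2.36 (SE 0.53, adjusted p = 0.00867), and *Cdca8* and *Cks2* also passed the threshold by limma. The BM-MSC libraries differed 3.31-fold to 8.92-fold among themselves for these genes, with replicate 3 highest for each of the 5. Without that library *Plk1*, *Cdc20*, *Cdca8* and *Hmmr* were still called, with differences of -4.17, -3.44, -2.92 and -1.71 on the log2 scale. *Cks2* then had -1.25 and an adjusted p of 0.0588 by limma, and without BM-MSC replicate 1 it had an adjusted p of 0.0515, so its call depends on these libraries.

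In the comparison of graft with steady-state P-SSCs, which asks what changed in P-SSCs in the days after the bone was moved, all 5 mitotic members were higher in the grafts and no library overlapped. Over all genes tested, 22.6% had a call as higher and 11.5% a call as lower in grafts, and 31.5% lay above and 19.0% below without overlap. The median log2 difference of the 5 genes was 5.53, against 0.26 over all genes. *Plk1*, *Cdc20*, *Cdca8* and *Hmmr* ranked 1, 2, 6 and 9 among the 1948 genes by size of increase, and *Cks2* ranked 25. Per library total, graft P-SSCs held 182.3 times the fragments of *Cdc20*, 76.51 times those of *Cdca8* and 18.88 times those of *Cks2*. These ratios rest on P-SSC replicate 2, which held most P-SSC fragments of *Cdc20* and *Cdca8*: without it they were 617.9 for *Cdc20*, at least 655.9 for *Cdca8*, counted against 3 fragments per library, and 21.88 for *Cks2*. Leaving out any 1 library, P-SSC replicates included, kept all 5 calls.

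The third comparison set graft P-SSCs beside BM-MSCs at steady state. All 5 mitotic members were higher in the grafts here too. Over all genes tested, 25.7% were called higher and 16.2% lower, and 40.5% lay above and 24.0% below without overlap, so that a gene called higher is common in this comparison. The log2 differences were 3.04 for *Cdc20* (SE 0.55, adjusted p = 0.00204), 2.57 for *Plk1* (SE 0.37, adjusted p = 0.000545) and 2.53 for *Hmmr* (SE 0.53, adjusted p = 0.00443). *Cks2* was 2.15 higher (SE 0.48, adjusted p = 0.00676) and *Cdca8* 2.08 higher (SE 0.60, adjusted p = 0.0209). The call of *Cdca8* was lost by limma without BM-MSC replicate 1 (adjusted p = 0.0642), BM-MSC replicate 2 (0.0814), or any 1 of the graft libraries (0.0578 to 0.0633). By limma it held in a fit of only these groups (adjusted p = 0.00508) and without any 1 P-SSC library (0.00577 to 0.0229). The SD of its log2 values was 0.971 in BM-MSCs, 1.16 in P-SSCs and 0.0603 in grafts, and the main fit pools these.

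**Figure D3:**
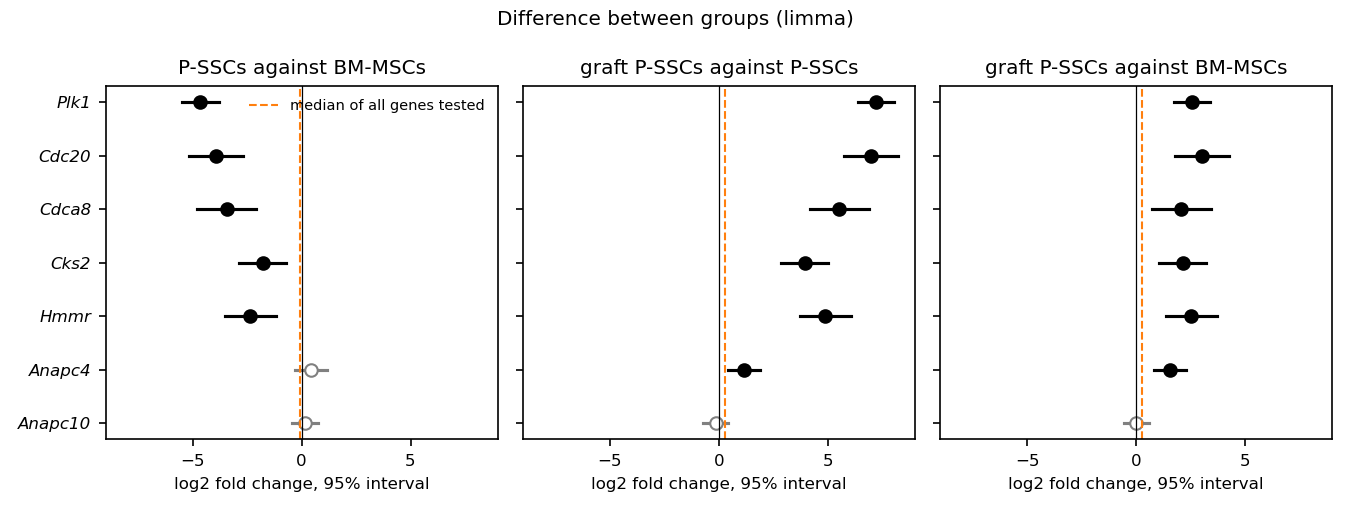
Log2 fold changes of the 7 genes (x axis) with 95% intervals from limma in the 3 comparisons, 1 gene per line, with filled black points for an adjusted p under 0.05, open grey points otherwise, a solid line at 0 and a dashed line at the median of all genes tested. The 5 mitotic genes lie to the left for P-SSCs against BM-MSCs and to the right in both graft comparisons, and *Anapc4* has a filled point in the graft comparisons and an open one between P-SSCs and BM-MSCs.

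*Anapc10*, on chromosome 8 from 79711820 to 79779059, encodes the APC/C subunit (DOC1) that forms, with the coactivator, the receptor for substrates. It had 5.68, 5.88 and 6.41 FPKM in BM-MSCs. P-SSCs had 8.63, 6.36 and 5.72 FPKM, and the grafts 6.11, 6.27 and 5.82. The groups overlapped in every comparison, with P-SSC replicate 1 the highest library. Across the 9 libraries *Anapc10* differed 1.52-fold between the lowest and the highest. The SD of its log2 values was 0.162, and 0.411% of the genes tested had a smaller one, whereas *Plk1*, at 3.198, was above 99.5% of them. The log2 difference was 0.16 for P-SSCs against BM-MSCs (95% interval -0.43 to 0.75, adjusted p = 0.722 by limma). It was -0.14 for graft against steady-state P-SSCs (-0.73 to 0.44, adjusted p = 0.704), or -0.42 and -0.55 under median-of-ratios scaling and quantile normalization and not called, and 0.02 for grafts against BM-MSCs (-0.57 to 0.60, adjusted p = 0.965). Changes within these intervals were not resolved.

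*Anapc4*, on chromosome 5 from 52834012 to 52867797, encodes a large scaffold subunit in the platform of the APC/C. BM-MSCs had 62.5, 21.01 and 30.7 FPKM, P-SSCs 52.7, 41.6 and 45.4, and grafts 107.6, 106.2 and 99.6. The graft libraries lay above all others, while BM-MSCs and P-SSCs overlapped because BM-MSC replicate 1 was above every P-SSC library. In mean FPKM the grafts were 2.24-fold above P-SSCs and 2.74-fold above BM-MSCs. By limma the log2 difference was 1.15 against P-SSCs (SE 0.33, adjusted p = 0.0223), or 0.89 beyond the median of all genes, and 1.57 against BM-MSCs (SE 0.33, adjusted p = 0.00445). The first of these calls was lost without P-SSC replicate 2 (adjusted p = 0.0672), without any 1 graft library (0.0579 to 0.0706) and under each of 3 other scalings of the libraries (0.0532 to 0.0661). By limma this call held in a fit of only these groups (adjusted p = 0.001855) and without any 1 BM-MSC library (0.00224 to 0.0337). The SD of the log2 values of *Anapc4* was 0.776 in BM-MSCs, 0.170 in P-SSCs and 0.059 in grafts, and the main fit pools these. For P-SSCs against BM-MSCs the difference was 0.42 (95% interval -0.32 to 1.16, adjusted p = 0.415). Without BM-MSC replicate 1 it was 0.84 with an adjusted p of 0.0219, so this comparison rests on that library. The ratio of *Anapc4* to *Anapc10* within a library was 17.6, 17.0 and 17.1 in the grafts, 6.11, 6.54 and 7.93 in P-SSCs, and 11, 3.57 and 4.79 in BM-MSCs. The RNA of these subunits thus did not keep 1 ratio across the groups. *Cdc20* went from 0.0103, 0.0881 and 0.00675 of the FPKM of *Anapc4* in P-SSCs to 2.45, 2.41 and 2.72 times it in the grafts.

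Other APC/C genes were followed from a list of 14 core subunits, of which *Anapc15* and *Anapc16* were the remaining members in the table. *Anapc15*, whose product helps to turn over checkpoint complexes on the APC/C, had 6.37, 3.77 and 7.13 FPKM in BM-MSCs, 2.45, 2.91 and 1.70 in P-SSCs, and 12.8, 10.3 and 11.7 in grafts. It rose by 1.93 on the log2 scale from steady-state to graft P-SSCs (SE 0.31, adjusted p = 0.00127 by limma), a call that held in all settings tried. Its lower level in P-SSCs than in BM-MSCs (-0.99, adjusted p = 0.0428) lost its call in most of them, as did its higher level in grafts than in BM-MSCs (0.94, adjusted p = 0.0362). *Anapc16*, a small subunit, had 88.0, 87.6 and 74.4 FPKM in BM-MSCs, 46.5, 64.3 and 43.7 in P-SSCs, and 57.8, 58.9 and 59.97 in grafts. It was lower in P-SSCs than in BM-MSCs by limma (-0.70, SE 0.18, adjusted p = 0.0180), though not under any of the 3 other scalings, in a fit of these groups alone, or without BM-MSC replicate 1, BM-MSC replicate 2 or P-SSC replicate 1. Between graft and steady-state P-SSCs its difference was 0.21 (adjusted p = 0.406), and -0.11 and -0.14 under median-of-ratios scaling and quantile normalization. Of the 4 core subunits tested, members included, *Anapc4* and *Anapc15* had a call as higher from steady-state to graft P-SSCs, beside 22.6% of all genes, and the call of *Anapc4* was lost in 7 of 19 settings.

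Of the coactivators, E2 enzymes and inhibitors of the APC/C, *Fzr1* was tested beside *Cdc20*. *Fzr1* had 6.52, 7.999 and 6.65 FPKM in BM-MSCs, 3.89, 1.42 and 35.0 in P-SSCs, and 95.2, 84.3 and 82.9 in grafts. P-SSC replicate 3, the library most like the grafts over all genes, was far above the other P-SSC libraries for this coactivator, while it was the lowest for *Cdc20*. The graft to P-SSC difference of *Fzr1* was 3.55 (SE 0.78, adjusted p = 0.00691 by limma), and 4.68 (adjusted p = 3.48e-06) without P-SSC replicate 3. Between P-SSCs and BM-MSCs the difference was -0.094 and not called, but -1.22 (adjusted p = 0.0116 by limma) without that replicate. *Pttg1* encodes securin, the APC/C substrate that holds separase inactive. It had 77.1, 100.1 and 74.6 FPKM in BM-MSCs, 107.1, 121.0 and 60.7 in P-SSCs, and 36.2, 40.4 and 36.4 in grafts. Its fall of 1.27 from steady-state to graft P-SSCs (SE 0.25, adjusted p = 0.00399 by limma) ran opposite to *Cdc20* and *Plk1*, and its graft libraries lay below all others.

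**Figure D4:**
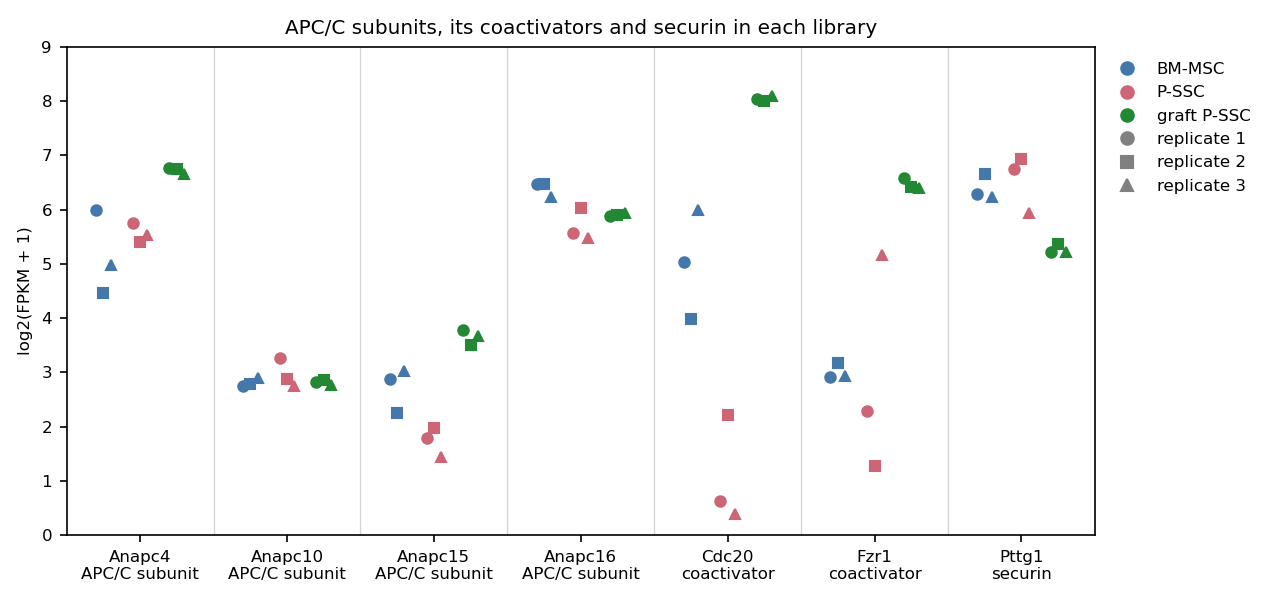
Expression as log2(FPKM + 1) on the y axis of 4 APC/C subunits, the coactivators *Cdc20* and *Fzr1* and securin (*Pttg1*) on the x axis, with colour for the group and symbol for the replicate of the 9 libraries. *Anapc10* spans 5.68 to 8.63 FPKM over all libraries, *Anapc4*, *Cdc20*, *Anapc15* and *Fzr1* are highest in the grafts, and *Pttg1* is lowest there.

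The wider mitosis lists held 162 symbols of APC/C, checkpoint, kinase, spindle, cohesion, transcription and SCF genes, of which 36 were in the table and 34 were tested. Among the 27 tested that are not members, 14 were lower and none higher in P-SSCs than in BM-MSCs by limma, with a median log2 difference of -0.94, beside 14.4% lower and 9.80% higher over all genes. From steady-state to graft P-SSCs, 20 were higher, 1 was lower and 6 were not called, with a median of 2.29, beside 22.6% and 11.5% over all genes. For grafts against BM-MSCs, 17 were higher, 1 was lower and 9 were not called, with a median of 1.24, beside 25.7% and 16.2%. Medians over all genes were -0.06, 0.26 and 0.28. Of the 27, 5 (*Cenpu*, *Cit*, *Dlgap5*, *Haspin* and *Kif20b*) passed the filter on low values only through the graft libraries, so that a difference to the grafts was built in for them. Among the other 22, 11 were lower in P-SSCs than in BM-MSCs (median -0.84), 15 were higher and 1 lower from steady-state to graft P-SSCs (median 2.13), and 14 were higher and 1 lower in grafts against BM-MSCs (median 1.18). For the 27, the count lower in P-SSCs than in BM-MSCs was 11 to 16 over the settings with all 9 libraries and 7 in a fit of only these groups, and without BM-MSC replicate 3 or P-SSC replicate 1 it was 10.

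Of the checkpoint and kinetochore list 7 genes were tested, of which 5 had higher levels in graft P-SSCs than at steady state (22.6% over all genes) and 5 were lower in P-SSCs than in BM-MSCs (14.4%). One of them, *Cenpu*, passed the filter only through the grafts and lost the second call in 11 of 18 settings (adjusted p up to 0.107 by limma), and *Mis12* lost it in 3 of 19 (up to 0.0891). *Spc25*, a subunit of the NDC80 complex that binds microtubules, had 0.590, 0.438 and 0.205 FPKM in P-SSCs and 22.6, 24.8 and 19.2 in grafts, a log2 difference of 4.04 (adjusted p = 2.72e-05 by limma). *Mis12*, which links the kinetochore to the centromere, had 8.78, 6.23 and 11.2 FPKM in P-SSCs and 22.7, 26.2 and 24.1 in grafts (1.41, adjusted p = 0.00466). *Cenpn*, which binds the centromeric nucleosome, was absent from P-SSC replicates 1 and 2, at 0.110 FPKM in replicate 3, and at 12.5 to 15.4 FPKM in grafts. *Mad1l1*, a checkpoint protein at unattached kinetochores, did not pass the test (0.64, adjusted p = 0.103, but 0.87 and 0.0446 without P-SSC replicate 1), with 21.3 to 36.3 FPKM in P-SSCs and 40.0 to 41.5 in grafts. *Cenpt* did not either (0.91, adjusted p = 0.134). Both of these had 10.1 FPKM or more in every P-SSC library, where *Spc25* and *Cenpn* were close to 0.

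Among the other mitotic kinases and phosphatases, *Nek2*, *Haspin* and *Cdc25a* were all higher in graft P-SSCs than at steady state (22.6% over all genes), and none was called between P-SSCs and BM-MSCs (14.4% lower and 9.80% higher over all genes) by limma on log2(FPKM + 1). *Haspin*, a histone kinase that passed the filter only through the grafts, was called lower in P-SSCs there by voom (-4.67, adjusted p = 0.00208) and with a pseudocount of 0.1 FPKM (-1.81, adjusted p = 0.0336). *Nek2*, a centrosomal kinase, had 0.125, 0 and 2.11 FPKM in P-SSCs and 28.5, 30.1 and 26.8 in grafts, a log2 difference of 4.28 (adjusted p = 0.000524 by limma). *Cdc25a*, a phosphatase that activates cyclin-dependent kinases, had 0.591, 1.25 and 3.69 FPKM in P-SSCs and 8.87, 11.9 and 7.03 in grafts (1.98, adjusted p = 0.00491). In both genes P-SSC replicate 3 was the highest of its group, whereas it was the lowest for *Cdc20* and *Cks2*.

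Besides *Hmmr*, 7 genes of the spindle, motors and cytokinesis were tested, and all 7 had higher levels in graft P-SSCs than at steady state (22.6% over all genes), and 5 were lower in P-SSCs than in BM-MSCs (14.4%). Of these 7, *Kif20b*, *Dlgap5* and *Cit* passed the filter only through the grafts. The call between P-SSCs and BM-MSCs was lost in 15 of 18 settings for *Cit* (adjusted p up to 0.127 by limma), in 3 of 19 for *Ect2* (up to 0.0702) and in 2 of 19 for *Racgap1* (up to 0.0635). For *Kif20b*, not called lower there, it was gained in 5 of 18 settings, by voom among them (-5.47, adjusted p = 0.000335). *Racgap1*, a GTPase-activating protein of the central spindle, had 1.15, 0 and 2.47 FPKM in P-SSCs and 122.3, 126.5 and 116.5 in grafts, a log2 difference of 5.97 (adjusted p = 8.73e-05 by limma). *Ckap2*, which stabilises spindle microtubules, had 0.534, 0 and 0.0741 FPKM in P-SSCs and 21.7, 26.5 and 23.2 in grafts (4.39, adjusted p = 7.54e-06). *Dlgap5*, which aids chromosome alignment, had 0.0303, 0 and 0 FPKM in P-SSCs and 19.1 to 21.8 in grafts (4.43, adjusted p = 2.97e-05). *Ect2*, the exchange factor that acts with the product of *Racgap1*, rose from 0 to 1.60 FPKM in P-SSCs to 14.9 to 17.9 in grafts (3.36, adjusted p = 0.000223). *Ckap5*, a microtubule polymerase, was the most even of them, with 9.54, 2.28 and 5.93 FPKM in P-SSCs and 14.9, 15.2 and 15.9 in grafts. Its difference of 1.40 (adjusted p = 0.0238) lost its call without any 1 graft library (0.0711 to 0.0775), with the same sum of FPKM in each library (0.051), under quantile normalization (0.97, adjusted p = 0.0856) and in a fit of only these groups (0.0559).

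Of the cohesion, condensation and separation list, *Ncaph*, *Pds5a* and *Pttg1* were tested. *Ncaph*, a condensin subunit, had 11.2, 14.4 and 34.9 FPKM in BM-MSCs, 1.59, 1.52 and 0.767 in P-SSCs, and 38.1, 36.1 and 37.0 in grafts. It was lower in P-SSCs than in BM-MSCs (-3.06, adjusted p = 0.000279 by limma) and higher in graft P-SSCs than at steady state (4.08, adjusted p = 6.19e-05). *Pds5a*, a cohesin regulator, was at 0.0203 to 3.402 FPKM in P-SSCs and 1.89 to 2.92 in grafts and was not called in any comparison.

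Among transcription regulators, *Foxm1*, the factor that drives many genes of this kind, had 2.58, 2.92 and 3.31 FPKM in BM-MSCs, 0.407, 0.151 and 0.0353 in P-SSCs, and 41.2, 37.5 and 31.9 in grafts. Its log2 difference was 4.99 from steady-state to graft P-SSCs (SE 0.28, adjusted p = 2.63e-06 by limma) and -1.72 for P-SSCs against BM-MSCs (adjusted p = 0.00127). *Tfdp1*, the partner of E2F factors, rose by 2.33 into the grafts (adjusted p = 0.00152). *Rbbp4*, a histone chaperone found in several complexes, was at 77.7 to 90.0 FPKM in P-SSCs and 81.9 to 92.6 in grafts (0.11, adjusted p = 0.729 by limma). *Skp1a*, of the SCF ubiquitin ligase, was at 213.4 to 308.9 FPKM in P-SSCs and 216.4 to 229.6 in grafts (-0.30, adjusted p = 0.223 by limma). It was called lower in the grafts under quantile normalization (-0.50, adjusted p = 0.0255) and without P-SSC replicate 3 (-0.47, adjusted p = 0.0211).

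**Figure D5:**
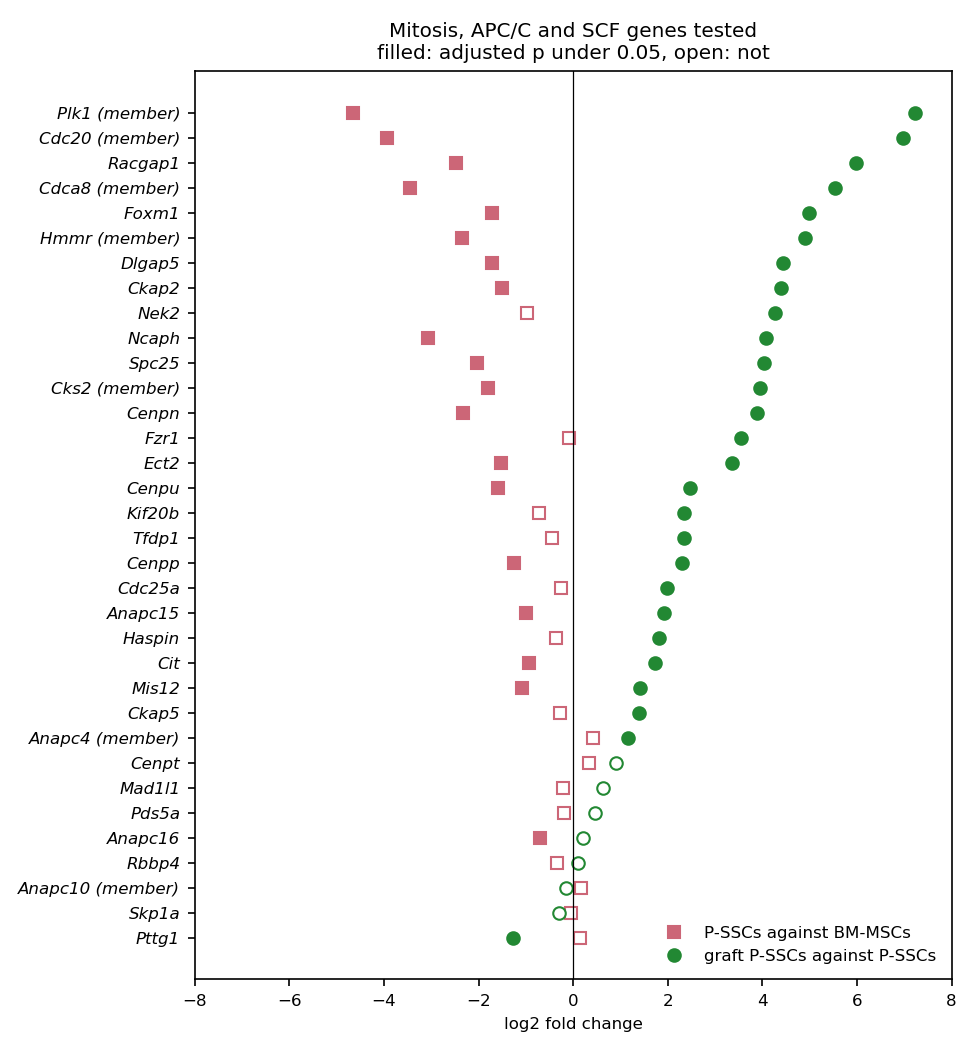
Log2 fold changes (x axis) of the 34 mitosis, APC/C and SCF genes tested, 1 gene per line in order of the change from steady-state to graft P-SSCs, with green circles for graft P-SSCs against P-SSCs, red squares for P-SSCs against BM-MSCs, and filled symbols for an adjusted p under 0.05. *Plk1* at 7.22 and *Cdc20* at 6.97 stand at the top, *Anapc10* and *Skp1a* near 0, and *Pttg1* at -1.27 at the bottom.

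The members' profiles over the 9 libraries were also compared with each other, as a description, since the points share groups and depth. Each mitotic member correlated with the mean standardised profile of the 5, which includes itself, at r = 0.982 to 0.996, *Anapc4* at 0.571 and *Anapc10* at -0.346. The genes most like the mean mitotic profile included *Pclaf* (r = 0.993), *Anapc15* (0.985), *Spc25* (0.982), *Snai1* (0.978), *Ube2t* (0.976), *Cenpp* (0.974), *Rabl3* (0.972), *Mcm5* (0.971) and *Cdk4* (0.968). *Pclaf*, which binds the replication clamp PCNA, had means of 8.03 FPKM in BM-MSCs, 0.0187 in P-SSCs and 41.8 in grafts, and *Mcm5*, of the replicative helicase, had 61.8, 7.09 and 133.8. An APC/C subunit, *Anapc15*, therefore followed the mitotic genes more closely than *Anapc4* or *Anapc10* did. The genes most like *Anapc4* were *Adss* (0.970), *Ube2w* (0.961) and *Dnaja1* (0.960), and those most like *Anapc10* were *Grpel2* (0.900), *Cmtr2* (0.778) and *Ttll1* (0.775).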

How the data were processed

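Poly-A RNA of sorted cells was sequenced by the authors, and GRCm38, STAR 2.6.1d and featureCounts 1.5.0-p3 are named in the submitters' processing notes. The deposited table gives FPKM per gene and library, in which the authors divided fragments by a gene length and the library total. The authors used DESeq2 for their own comparisons, which needs counts and was not used here. FPKM times the mean transcript length in GENCODE M21 times the library total was whole (within 0.01) for 94.7% of 22664 values above 0, which gave the totals.

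FPKM were changed to log2(FPKM + 1), and 3 groups of 3 libraries were compared in R 4.3.3 with limma 3.58.1 (eBayes with a trend) for the 1948 genes that reached 1 FPKM in 3 libraries or more. The call threshold was 0.05 for p after Benjamini-Hochberg adjustment. The procedure was tested on simulated data with 1 spread per gene in all groups. The groups here differ in spread, so that test does not show how the calls fare with unequal spreads. Members, lists and tests were chosen with earlier results of these data known. Besides the 7 members, up to 5 tested genes per list were named, those of highest mean FPKM (*Cenpu*, *Cit* and *Kif20b* were named besides, after their values were seen), and genes most like the members by Pearson's r (10 for the mitotic mean, of which 1 is not reported here, and 3 for each subunit). Each replicate is stated to hold distinct mice, and p-values measure the spread between libraries of a group, pooled over the 3 groups.

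Replicate numbers come from titles only, and deviations of libraries with the same number correlated at -0.434 to 0.132, so the main fit had no block. Alternatives changed the pseudocount (0.1), the filter, the scaling, the trend, the block and the libraries in the fit. Chosen after seeing the data was voom on whole fragments of 1831 genes. Promoters came from RefSeq windows. No protein sequences were used here.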

Additional observations from a re-analysis of the deposited data

How the results depend on the processing

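In each of the 3 comparisons the 5 mitotic genes were called in every setting tried, except *Cks2* in P-SSCs against BM-MSCs and *Cdca8* in grafts against BM-MSCs. The number of the APC/C subunits *Anapc4* and *Anapc10* called in graft against steady-state P-SSCs was 1, but 0 under median-of-ratios scaling, under the same sum of FPKM in each library and under quantile normalization, and from 0 to 1 when 1 library was left out (0 without P-SSC replicate 2 or any 1 graft library). For P-SSCs against BM-MSCs it was 0, and 0 to 1 when 1 library was left out (1 without BM-MSC replicate 1). The difference of *Anapc10*, never called, ranged from -0.25 to 0.0065 in graft against steady-state P-SSCs when 1 library was left out (above 0 without P-SSC replicate 1), and was -0.14 with all libraries, -0.27 with the same sum of FPKM, -0.42 under median-of-ratios scaling and -0.55 under quantile normalization. It ranged from -0.016 to 0.059 in this way in grafts against BM-MSCs, and also changed sign there under median-of-ratios scaling (-0.19), under quantile normalization (-0.32), and was below 0 without BM-MSC replicate 1 (-0.016) and without graft P-SSC replicate 2 (-0.0042). The cause of these changes was not tested. *Cks2* lost its call in 5 of 19 settings: with no filter (adjusted p = 0.0556 by limma), with only the groups compared (0.0945), by voom (0.0782) and without BM-MSC replicate 1 or 3 (0.0515 and 0.0588). *Cdca8* lost it in 8 of 19: with a pseudocount of 0.1 (0.178), with no filter (0.0501), under quantile normalization (0.0523), and without BM-MSC replicate 1 or 2 or any 1 graft library (0.0578 to 0.0814). The call was lost for *Anapc4* in graft against steady-state P-SSCs in 7 of 19 (up to 0.0706).

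The fitted size of genes near 0 in P-SSCs depended on the scale: *Plk1* in graft against steady-state P-SSCs was 7.01 to 12.2 and *Hmmr* 4.55 to 10.9 over the settings, the highest by voom on whole fragments. Scaling moved the share of calls that were higher in graft against steady-state P-SSCs from 66.3% to 50.8% (median of ratios) or 46.8% (quantile), and in grafts against BM-MSCs from 61.4% to 51.5% or 48.9%. With the replicate number as a block, which the titles alone give, 441, 621 and 755 genes were called in the 3 comparisons against 472, 665 and 816 without it, and no call of a member changed. Depth limits the P-SSC values: 1 fragment was 0.0434 FPKM of *Plk1*.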
